A study of Canis lupus familiaris with 10 samples.

Results

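The genes described here, measured in cultured canine hemangiosarcoma cells, are 10 genes that are known to sense oxygen, transmit the hypoxia signal or answer to it, namely EGLN1, EGLN3, VHL, HIF1A, EPAS1, CA9, ADM, NDRG1, BHLHE40 and BHLHE41. All probe sets that the array's annotation names for these genes were taken, which gave 10 of 15115 named genes and 19 of the 42924 probe sets besides the controls. Hemangiosarcoma is a malignant tumor of blood vessel forming cells, and the cells studied were early-passage cultures grown from splenic tumors of pet dogs, with 1 Canine_2 array for each of 10 dogs. The Golden Retriever group held ChadG4, ChadG6, ChadG8, Frog, Journey and Tucker, 3 males and 3 females aged 6 to 12 years, and Frog and Journey were related. DD1, labelled Golden Mix, was a male Golden Retriever×Great Pyrenees F1 dog. The non-Golden Retriever group held ChadP9 (Portuguese Water Dog), Dal4 (Dalmatian) and Joey (Rottweiler), all males aged 7 to 9 years. No treatment and no oxygen tension distinguished the dogs in the labels, so the values describe cultures as they were harvested. Differences in sex cannot be separated from breed in the full comparison, and each SD is the spread between dogs.

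In cells with enough oxygen, prolyl hydroxylases of the EGLN family mark the alpha subunits of hypoxia-inducible factor (HIF), and the von Hippel-Lindau protein VHL then directs them to destruction. When oxygen falls, the alpha subunits HIF1A and EPAS1 escape, pair with ARNT and switch on genes for glycolysis, vessel growth and acid export. Much of this control acts on protein, which arrays do not measure. EGLN3 is itself induced by HIF and so serves as a feedback sensor, and EPAS1 is known for its high expression in endothelium.

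Signals are log2 values from the robust multiarray average (RMA), and they are compared between dogs within a probe set and never between genes. A signal under the 40th percentile of its array (5.02 to 5.16 over the arrays) is called low. Most probe sets of an array lie above such a line, so a place above it does not by itself show expression. Of the 19 probe sets, 18 lay above this line on at least 3 arrays and were tested, and 13 lay above it in all 10 dogs. The weaker probe set of EGLN1 was low in every dog, at 3.18 to 4.02, and was not tested. Where a gene had several probe sets they are numbered by mean signal, and values are for the first unless stated. Of 10 endothelial markers 4 were above the line in all dogs and 4 to 7 in each dog, and PECAM1 and TEK were low in every dog. Of 8 mesenchymal markers 7 were above it in all dogs, and the exception, LUM, was at 4.40 in Dal4 and at 12.47 or more elsewhere. ACTA2, above the line throughout, was at 6.39 in ChadG4 and 9.73 in Dal4, against 12.69 or more elsewhere. Of 7 leukocyte markers 4 were above it in all dogs, while PTPRC, CD79A and ITGAM were low in every dog. Some markers above the line stayed close to it, with CSF1R at 5.23 to 5.48 and CDH5 at 5.15 to 5.41. Others, such as CD14 at 5.98 or more and KDR at 6.51 or more, did not stay close to the line. Of 4 epithelial markers 0 were above it in all dogs and CDH1 was low in every dog. KRT8, however, was above it in 9 dogs, at 9.45 or more, and low in ChadP9. KRT18 was above it in 7 dogs and ran from 3.57 in ChadG4 to 13.22 in Journey. EPCAM was at 8.03 in Tucker and 8.87 in Joey, against 4.72 or less elsewhere. The mean of the proliferation genes TOP2A and CDK1 ran from 5.96 in Tucker to 10.04 in Dal4. The arrays of Dal4 and ChadG4 stood furthest from the rest, with a median r of 0.909 and 0.91 to the other arrays over the tested probe sets, against 0.937 to 0.959 for the other dogs. Results are therefore also given without them. In such bulk RNA, fewer cells of a type and less RNA per cell cannot be told apart.

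The oxygen sensor EGLN1 varied about as much as a typical probe set, with an SD larger than that of 50.3% of those tested. Its lowest, median and highest signals were 8.69, 8.88 and 9.19 in Golden Retrievers, DD1 had 9.67, and the non-Golden Retrievers ChadP9, Dal4 and Joey had 8.98, 8.43 and 9.03. DD1 thus lay above every purebred dog, whose groups overlapped. EGLN3, the hypoxia-induced sensor, had the widest range of all the genes on this list. It ran from 5.95 (Tucker) over a median of 7.82 to 10.28 (ChadG8) in Golden Retrievers and was 8.70 in DD1, against 8.42 in ChadP9, 3.97 in Dal4 and 6.63 in Joey. The signal of Dal4 was low and lay 6.31 log2 units under that of ChadG8, a gap that is a lower bound because Dal4 was near background. The SD over the 10 dogs was 1.733, larger than that of 99.0% of tested probe sets (median SD 0.328). Of the member probe sets only the second of CA9 had a larger SD, 1.760. The other EGLN3 probe set ordered the 10 dogs identically (Spearman's rho = 1.00, and Pearson's r = 0.99, adjusted p = 3.67e-05 over 11 probe set pairs of the same gene, permutation test).

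VHL, the ubiquitin ligase subunit that removes HIF, was highest in ChadG4. Signals were 6.48 (Journey), 7.74 and 9.17 (ChadG4) as the lowest, median and highest in Golden Retrievers and 7.31 in DD1, against 7.70, 8.19 and 7.96 in ChadP9, Dal4 and Joey. The range of the Golden Retrievers held that of the other breeds. The other VHL probe set also had its highest value in ChadG4, at 7.81, but its lowest in Tucker, at 6.24.

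HIF1A, the ubiquitous alpha subunit, was above the line in all cultures. Its signal was 12.17, 12.39 and 12.69 as the lowest, median and highest in Golden Retrievers and 11.92 in DD1, against 11.83, 12.09 and 12.58 in ChadP9, Dal4 and Joey. Its range over all dogs was 0.87 log2 units, and 42.0% of tested probe sets had a smaller SD. The other probe sets ranged over 1.57 and 1.56 log2 units, with SDs larger than those of 69.0% and 74.9% of tested probe sets, and ChadG4 was highest in all 3. EPAS1, the alpha subunit associated with endothelium, spread more widely. It had 6.49, 7.46 and 8.56 in Golden Retrievers and 7.69 in DD1, against 8.66 in ChadP9, 4.92 in Dal4 and 6.42 in Joey. The non-Golden Retrievers thus held both the highest and the lowest EPAS1 signals, and that of Dal4 was low.

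Among the targets other than EGLN3, CA9, a cell surface carbonic anhydrase that acidifies the surroundings of hypoxic cells, spread most. Its signal was 7.22 (Tucker), 8.22 and 10.24 (ChadG4) as the lowest, median and highest in Golden Retrievers and 9.76 in DD1, against 6.23 in ChadP9, 5.65 in Dal4 and 8.56 in Joey. ChadP9 and Dal4 lay under every Golden Retriever, but Joey lay above 4 of them. The groups therefore overlapped. The other CA9 probe set, low in ChadP9 (4.53) and Dal4 (4.06), gave 5.36, 7.36 and 9.08 in Golden Retrievers, 8.90 in DD1 and 7.30 in Joey.

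ADM, the vasodilator peptide adrenomedullin, was above the line in all cultures, with an SD larger than that of 61.4% of tested probe sets. It had 11.50 (Tucker), 12.35 and 12.77 (Journey) in Golden Retrievers and 12.15 in DD1, against 12.45, 12.23 and 12.46 in ChadP9, Dal4 and Joey. NDRG1, a stress-responsive cytoplasmic protein, had the smallest range of the 10 genes, 0.80 log2 units. Its values were 5.65 (Tucker), 6.20 and 6.43 in Golden Retrievers and 6.45 in DD1, against 6.40, 6.13 and 5.95 in ChadP9, Dal4 and Joey. Tucker was the lowest dog for both genes. NDRG1 had only 1 probe set, whose SD was larger than that of 36.2% of tested probe sets.

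BHLHE40 and BHLHE41 encode related basic helix-loop-helix repressors that feed back on the circadian clock. BHLHE40 was highest in ChadG4, with 11.07, 11.65 and 12.79 in Golden Retrievers and 11.73 in DD1, against 11.30, 10.84 and 11.15 in ChadP9, Dal4 and Joey. ChadG4 was highest at all 3 of its probe sets, while the lowest dog was Dal4 at the first and Journey at the others, at 7.83 and 7.33. BHLHE41 ran from 8.97 (Tucker) over 10.76 to 11.41 (ChadG8) in Golden Retrievers and was 11.17 in DD1, against 7.32 in ChadP9, 10.21 in Dal4 and 10.75 in Joey. Here ChadP9, and not Dal4, was the lowest dog.

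**Figure D1:**
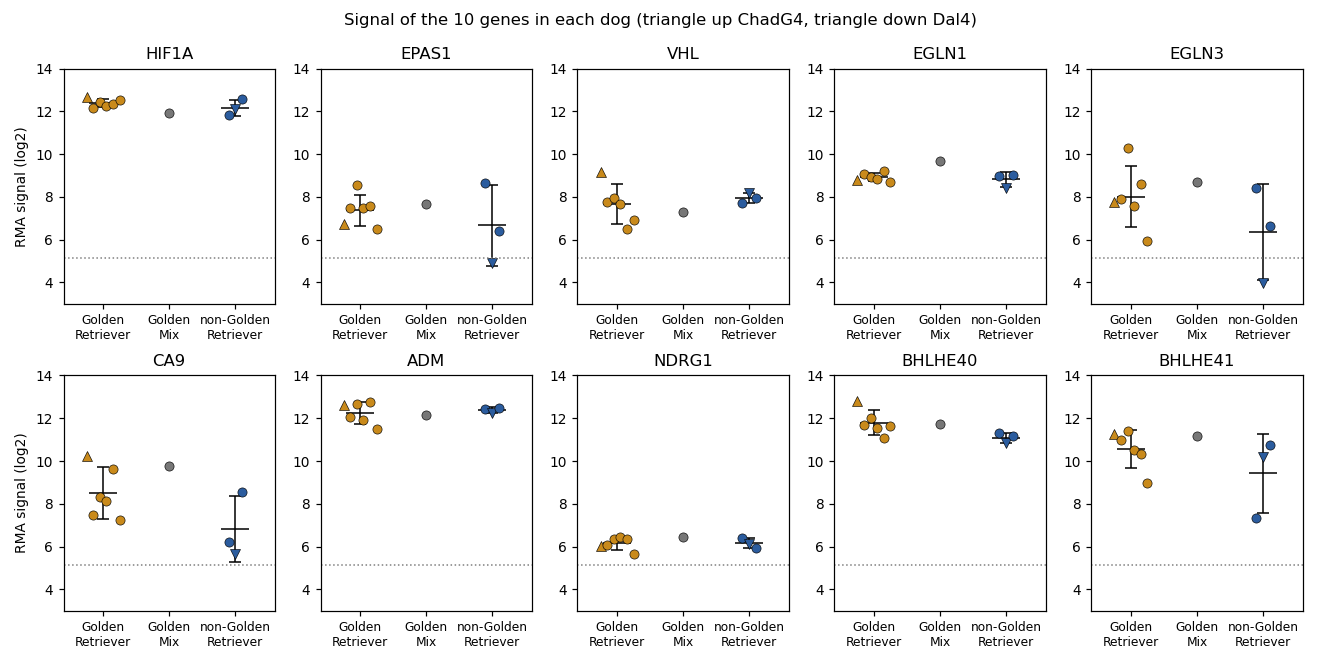
RMA signal (log2) of each gene at its probe set of highest mean, with 1 point per dog, bars for the group mean with SD (6 Golden Retrievers, 3 non-Golden Retrievers) and a dotted line at 5.16, the highest 40th percentile of any array. EGLN3 spans 3.97 to 10.28 and CA9 5.65 to 10.24, while NDRG1 stays between 5.65 and 6.45.

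CA9, EGLN3, BHLHE41 and BHLHE40 had higher mean signals in Golden Retrievers, but no difference passed the test over all probe sets. The study asked which genes follow breed. Each difference is the mean of the 6 Golden Retrievers less that of the 3 dogs of other breeds, tested with limma, and DD1 was left out. At an adjusted p under 0.05, 0 of 18 member probe sets were called, where 1 of 26891 (0.00372%) was in the whole table. At an unadjusted p under 0.05, 1 of the 18 was higher and 0 were lower, where 6.32% of all tested probe sets passed, 1.81% as higher and 4.5% as lower. Higher ones made up 28.7% of these 1699 probe sets over all genes, and 46.3% when array medians were set equal. The 1 member was the second CA9 probe set. Its mean was 7.37 ± 1.317 in the 6 Golden Retrievers and 5.30 ± 1.750 in the 3 non-Golden Retrievers (SD), which differed by 2.08 on the log2 scale (limma, SE 0.892, adjusted p = 0.774). The difference is understated where signals are near background. The first CA9 probe set had 1.68 (SE 0.803, adjusted p = 0.776). By exact permutation over 84 splits of the dogs, two-sided p was 0.119 for the first and 0.0714 for the second, where the smallest possible is 0.0119.

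None of the other tested members passed at an unadjusted p under 0.05. BHLHE40 differed by 0.69 on the log2 scale (SE 0.323, adjusted p = 0.776), and its other probe sets had 0.47 and 0.58. EGLN3 had 1.67 (SE 1.038, adjusted p = 0.797) and BHLHE41 had 1.16 (SE 0.761, adjusted p = 0.805). EPAS1 stood at 0.71 (SE 0.725), HIF1A at 0.24 (SE 0.190), EGLN1 at 0.10 (SE 0.178), NDRG1 at -0.02 (SE 0.195), ADM at -0.11 (SE 0.286) and VHL at -0.29 (SE 0.497), with adjusted p-values of 0.835 to 0.992. NDRG1 turned positive after median centring, at 0.05. Groups overlapped at all 18 probe sets, where they did not overlap at 2.45% of those tested. Single dogs moved these values. For EGLN3 the difference was 0.49 without Dal4 and 2.71 without ChadP9, and for EPAS1 it was -0.16 without Dal4 and 1.71 without ChadP9. That of CA9 was 1.10 without Dal4 and 2.56 without Joey, and that of BHLHE41 was 0.10 without ChadP9 and 1.82 without Joey. The HIF1A difference was 0.07 without ChadP9 and 0.45 without Joey, and it was 0.01 at both other probe sets without ChadP9. VHL had -0.59 without ChadG4 and -0.05 without Journey. Without ChadG4 the differences of CA9 and BHLHE40 were 1.34 and 0.49. Among males alone CA9 had 1.77 and EGLN3 1.66.

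**Figure D2:**
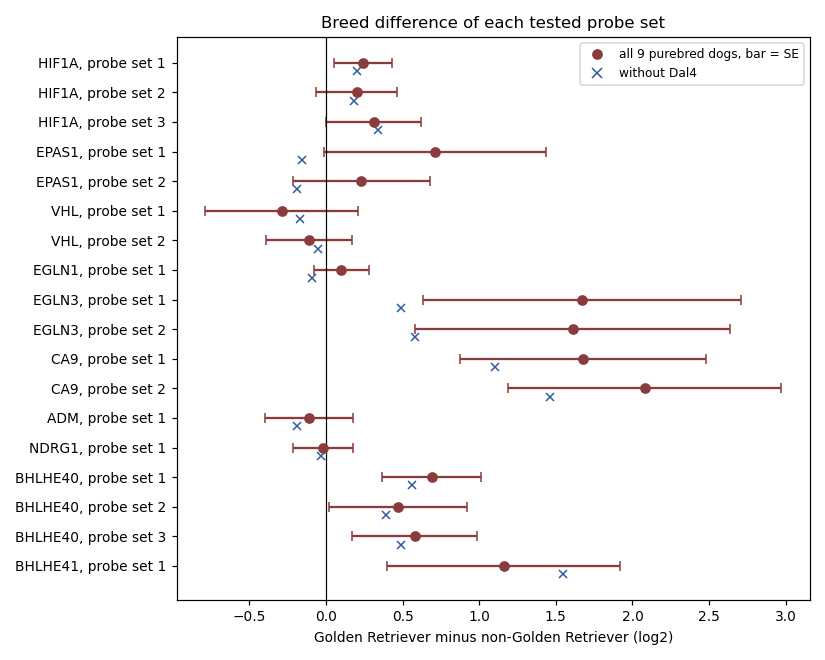
Difference of the breed means (log2, Golden Retriever less non-Golden Retriever) at the 18 tested probe sets with its SE from limma (circles, 6 against 3 dogs), and the same without Dal4 (crosses). The CA9 and EGLN3 differences lie between 1.61 and 2.08, and without Dal4 those of EGLN3 fall to 0.49 and 0.58.

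EPAS1 and EGLN3 followed each other from dog to dog. Pearson's r over the 10 dogs was 0.92 (permutation test, adjusted p = 0.0162 over the 45 gene pairs) and Spearman's rho was 0.90 (permutation test, adjusted p = 0.0391). Both were highest in ChadG8, ChadP9, DD1 and Journey and lowest in Tucker, Joey and Dal4. Without Dal4 r was 0.84 (exact permutation test, p = 0.00456, adjusted p = 0.196), without ChadG4 it was 0.94, and within the 6 Golden Retrievers it was 0.92 (exact permutation test, p = 0.0181). Without Dal4 and ChadP9, the dogs farthest from the median of EPAS1, r was 0.93 (exact permutation test, p = 0.000794), and without Dal4 and ChadG8, those farthest from the median of EGLN3, it was 0.78 (exact permutation test, p = 0.02). Among 11142 genes, EGLN3 ranked 9 by its likeness to EPAS1 and EPAS1 ranked 6 by its likeness to EGLN3. The mean signal of the 10 endothelial markers was 4.79 to 4.94 in Joey, Dal4 and Tucker and 5.59 and 5.66 in ChadP9 and ChadG8. The markers differed in this. FLT1 was at 8.38 in ChadG8 and 8.32 in ChadG4, against 3.50 to 3.67 in Dal4, Joey and Tucker. In ChadP9 and DD1, which were high for EPAS1, FLT1 was low, at 4.98 and 4.63. ENG was at 5.99 in ChadP9 and 4.96 or less elsewhere. KDR was highest in ChadP9 and ChadG8 and lowest in Joey and Tucker, but in Dal4, at 7.38, it lay above Frog, Journey and ChadG6. CDH5 stayed between 5.15 and 5.41 in all dogs. ChadG4 also had a high marker mean, 5.60, with EPAS1 at 6.75. Over the list these means ran from 4.94 to 5.66 in Golden Retrievers and from 4.79 to 5.59 in non-Golden Retrievers, and neither their part in the pattern nor that of the high EPCAM in Joey and Tucker and the low LUM in Dal4 was tested.

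**Figure D3:**
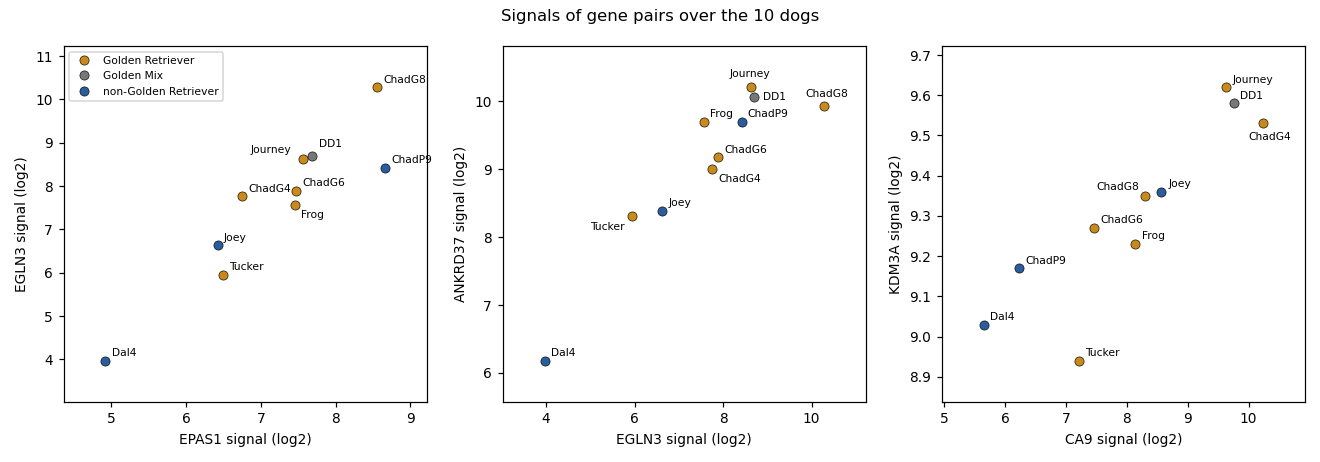
Signals (log2) of EGLN3 against EPAS1, ANKRD37 against EGLN3 and KDM3A against CA9, with 1 point per dog colored by group. Dal4 lies at the low end of the first pair and the second, and r over the 10 dogs is 0.92, 0.92 and 0.88.

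No other pair passed over the 45, although 35 of the 45 values of r were positive. HIF1A had r = -0.28 with EPAS1 (permutation test, p = 0.44), which was -0.68 without Dal4 (exact permutation test, p = 0.0476, adjusted p = 0.357) and -0.63 without Dal4 and ChadG4. With EGLN3 its r was -0.06 (permutation test, p = 0.879), or -0.35 without Dal4. With NDRG1 it was -0.62 (permutation test, p = 0.0544, adjusted p = 0.471), but -0.18 at the most variable HIF1A probe set. CA9 and EGLN3, both HIF targets, had r = 0.53 (permutation test, p = 0.115), which was 0.19 without Dal4. The pattern of CA9 was nearer to that of BHLHE41, at r = 0.61 (permutation test, p = 0.055, adjusted p = 0.471). The related repressors BHLHE40 and BHLHE41 had r = 0.39 and rho = 0.73 (permutation test, p = 0.26 for r and 0.0211 for rho). VHL and BHLHE40 shared their highest dog, ChadG4: r was 0.53 over all dogs and 0.94 within Golden Retrievers, but -0.02 at its lowest with 1 dog left out. Without ChadG4 and Journey, the dogs farthest from the VHL median, it was -0.46.

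**Figure D4:**
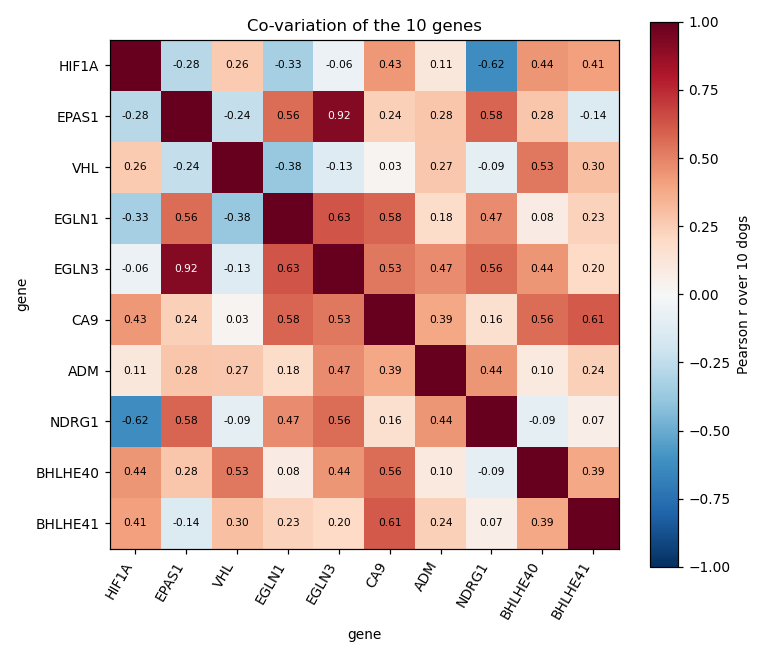
Pearson r over the 10 dogs for each pair of the 10 genes, red for positive and blue for negative. EPAS1 with EGLN3 stands at 0.92, and HIF1A is negative with EPAS1, EGLN1, EGLN3 and NDRG1.

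The wider HIF pathway was read from 40 further genes, of which 34 were tested at 1 probe set each. At an adjusted p under 0.05, 0 of them differed between the breed groups, where 1 of all 26891 tested probe sets did. At an unadjusted p under 0.05, 2 were higher and 2 lower, where 1.81% of all tested probe sets were higher and 4.5% lower. VLDLR, a lipoprotein receptor, differed by 1.92 on the log2 scale (SE 0.743, adjusted p = 0.774) and was at 5.13 in Dal4 against 8.72 or more in every other dog. INSIG2, which restrains sterol synthesis, had 0.58 (SE 0.256, adjusted p = 0.774). CITED2, which competes with HIF for its coactivators, had -1.05 (SE 0.320, adjusted p = 0.774), with means of 8.65 ± 0.270 in the 6 Golden Retrievers and 9.70 ± 0.827 in the 3 dogs of other breeds (SD). CUL2, the scaffold of the VHL complex, had -0.83 (SE 0.352, adjusted p = 0.774), a lower bound in size because most Golden Retrievers were low. Without Dal4, VLDLR had 0.67.

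Of the 24 other HIF targets, 21 were higher in Golden Retrievers with a median log2 difference of 0.44, where 47.2% of all tested probe sets were higher and the median was -0.02. When array medians were set equal, 22 of the 24 were higher with a median of 0.51, where 57.8% of all tested probe sets were, with a median of 0.05. The largest after VLDLR was ANKRD37, a short ankyrin protein, at 1.30 (SE 0.690, adjusted p = 0.783). Of the sensors and VHL complex 1 of 5 was higher (median -0.34), and of the factor subunits and coactivators 1 of 5 (median -0.18). Targets share regulators and arrays, so their counts are not independent. Without Dal4, 19 of the 24 targets were higher with a median of 0.25, without ChadP9 22 were, with a median of 0.75, and among males alone 17 were, with a median of 0.20. Hypoxia was among the themes of the study's own gene set analysis on this data, so the direction of this list is not independent evidence for it.

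Over the 10 dogs EGLN3, EPAS1 and NDRG1 had the highest median r with the other targets and HIF1A the lowest. For EGLN3, r was positive with 22 of 24 targets (median 0.67), for EPAS1 with 22 (median 0.59) and for NDRG1 with 22 (median 0.52). EGLN1, CA9, ADM and BHLHE40 had medians between 0.33 and 0.43, and BHLHE41 had 0.19. For HIF1A, taken at its first and least variable probe set, r was positive for 7 of 24 with a median of -0.18. For VHL the median was -0.01. Over all 11142 genes the median r was -0.02 for EGLN3, -0.03 for EPAS1, 0.04 for NDRG1 and -0.04 for HIF1A. Without Dal4 the target medians were 0.54 for EGLN3, 0.54 for EPAS1, 0.63 for NDRG1 and -0.34 for HIF1A. Within the Golden Retrievers the order was another, with 0.67 for BHLHE41, 0.66 for NDRG1, 0.61 for ADM, 0.57 for EGLN3, 0.50 for EGLN1, 0.47 for EPAS1 and -0.25 for HIF1A. Tucker was the lowest Golden Retriever for BHLHE41, NDRG1 and ADM. It was also lowest for targets such as PDK1 (8.08 against 10.57 or more), though not for VEGFA or VLDLR. Over the 10 dogs less Tucker and Journey, the r of ADM with the targets ran from -0.74 (CA12) to 0.67 (DDIT4). The part of Tucker in these medians was not tested.

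**Figure D5:**
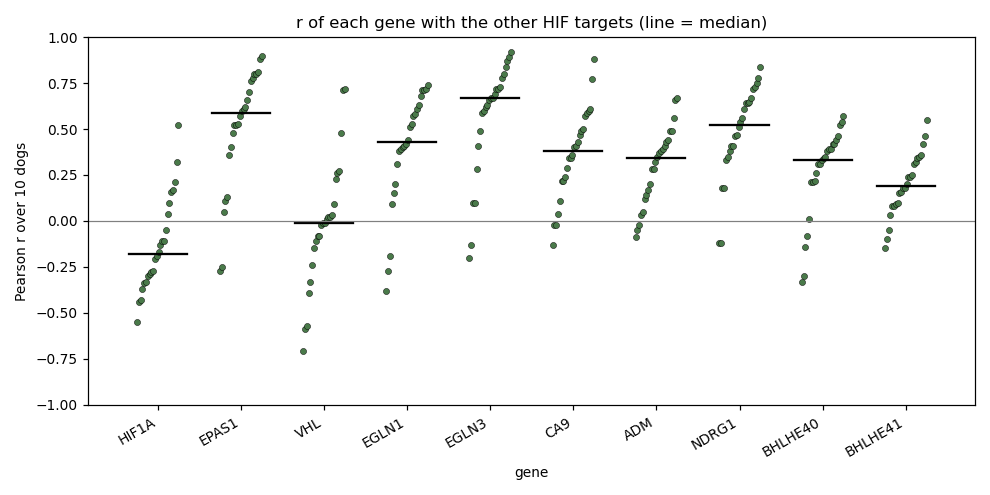
Pearson r over the 10 dogs between each gene and the 24 other tested HIF targets, sorted within each gene, with a line at the median. Medians are 0.67 for EGLN3 and 0.59 for EPAS1, against -0.18 for HIF1A.

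Of the 340 pairs of a member with a gene of the wider pathway, 4 passed at an adjusted p under 0.05. These pairs were examined after the values had been seen. EPAS1 had r = 0.88 with P4HA1, a collagen prolyl hydroxylase (permutation test, adjusted p = 0.0187, rho = 0.92). EGLN3 had r = 0.92 with ANKRD37 (permutation test, adjusted p = 0.0261, rho = 0.88) and r = 0.87 with P4HA1 (permutation test, adjusted p = 0.0391, rho = 0.81). BHLHE40 ran against ELOC, elongin C of the VHL complex, at r = -0.91 (permutation test, adjusted p = 0.0187, rho = -0.90). By rho, 0 of the 340 passed and the smallest adjusted p was 0.0782. Without Dal4 the 4 values of r were 0.78, 0.84, 0.77 and -0.91, and 0 passed. Within Golden Retrievers they were 0.76, 0.80, 0.76 and -0.92. ELOC was at 11.78 in ChadG4, the highest dog for BHLHE40, against 12.65 or more elsewhere. Without ChadG4 and Dal4 the r of BHLHE40 with ELOC was -0.78 (exact permutation test, p = 0.0228). The count was 0 without ChadG4, 0 without Dal4, 1 without Joey and 2 without ChadG6.

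The genes whose patterns came closest gave further detail on each member. To CA9 the closest were STC1, a secreted glycoprotein (r = 0.896), SLC25A17, a peroxisomal carrier (0.886), and KDM3A, a histone demethylase that stood on the list of HIF targets (0.879). STC1 ran from 4.19 to 7.17 and, like CA9, was highest in ChadG4. To EGLN3 the closest were RHEB, an activator of mTOR signaling (0.946), ELN, which encodes elastin (0.937), and ITPR3, a calcium channel (0.933), each lowest in Dal4 and highest in ChadG8. To EPAS1 they were LOC475009 (0.962), LOC475936 (0.958) and EMP2, an epithelial membrane protein (0.947). To BHLHE41 they were ANXA8L1, an annexin (0.90), KRT8, a simple epithelial keratin (0.893), and IRX5, a homeobox factor (0.868), each lowest in ChadP9, where KRT8 was low at 3.82 against 9.45 or more in the other dogs. HIF1A was closest to TRAPPC14, FGF14 and HACD4 (0.889 to 0.905), VHL to ATXN7, ABHD8 and SS18 (0.924 to 0.935), and EGLN1 to SNCAIP, PRELP and ELOVL1 (0.854 to 0.863). ADM was closest to AGPAT1, FBXL2 and FBXL18 (0.91 to 0.927), NDRG1 to SMG6, ZCCHC24 and KCTD5 (0.939 to 0.962), and BHLHE40 to NCLN, KIAA2013 and ATP6AP1 (0.945 to 0.959). With 10 dogs and 11142 genes searched, values of this size are a description of these arrays.

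Read by dog at the first probe sets, Dal4 had the lowest signal for EPAS1, EGLN1, EGLN3, CA9 and BHLHE40. ChadG4 had the highest for HIF1A, VHL, CA9 and BHLHE40. ChadG8 was highest for EGLN3 and BHLHE41. DD1, the F1 dog, ranked 1 from the top for EGLN1 and NDRG1, 2 for EGLN3 and CA9, 3 for EPAS1, BHLHE40 and BHLHE41, 7 for ADM, 8 for VHL and 9 for HIF1A. At the other probe sets of BHLHE40 it ranked 6.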

How the data were processed

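Canine_2 arrays measured RNA from tumor cell cultures of 10 dogs, 1 array each. The deposited table holds log2 signals, and the authors computed them by RMA (affy is named in the submitters' processing notes, and versions are not given in the sources used here), which equalizes the distribution of signals between arrays, so a shift shared by most genes would be removed. Array medians ran from 5.77 to 5.83. The 111 control probe sets were removed, and 26891 of the remaining 42924 were tested, each exceeding its array's 40th percentile in 3 or more of the 10 dogs. The number of arrays limits the precision. Names came from the array's annotation table: 29254 probe sets had 1 gene, 439 several and 13231 none, and 27680 of those with 1 gene matched by gene ID the RefSeq annotation of UU_Cfam_GSD_1.0. Sequences of genes, promoters and proteins were not used here.

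Breed groups were compared with limma 3.58.1 (lmFit and eBayes, two-sided, Benjamini-Hochberg over all tested probe sets) in R 4.3.3, and the fit was tested on simulated data. For co-variation each gene stood with its probe set of highest mean. Permutation tests drew 100000 resamples for 10 dogs and were exact for fewer. The text names all 10 members, the genes of the pathway list at an unadjusted p under 0.05 or with the 2 largest differences in each direction, and for each member the 3 most alike genes. Genes named for their co-variation with a member were chosen after their values were seen. The members and lists were chosen with earlier results of these data known. Sex and age came from the study's list of dogs. Alternatives were another filter, scaling, test, probe set, placing of DD1, males alone and 1 dog left out.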

Additional observations from a re-analysis of the deposited data

How the results depend on the processing

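Under every alternative run for the breed comparison, 0 of the member probe sets and 0 of the other pathway genes passed at an adjusted p under 0.05. The count over all probe sets was 2 by the methods' t-test, 0 with DD1 among the non-Golden Retrievers, and 1 to 2 with 1 dog left out. Of 305 recomputed member differences, 292 kept their direction, and 13 at 7 probe sets turned: VHL was 0.05 among males alone, EGLN1 was -0.02 among males alone and -0.11 with DD1 among the non-Golden Retrievers, and NDRG1 was 0.05 after median centring and 0.03 with DD1 among the Golden Retrievers. With 1 dog left out, EPAS1 ran from -0.16 to 1.71 and from -0.19 to 0.82 at its 2 probe sets, VHL's second from -0.28 to 0.03, EGLN1 from -0.09 to 0.21, ADM from -0.22 to 0.04 and NDRG1 from -0.12 to 0.10. The member count at an unadjusted p under 0.05 ran from 0 to 3. Over all probe sets that count ran from 922 of 26891, with DD1 among the non-Golden Retrievers, to 3144 of 26891 without ChadP9.

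For EPAS1 and EGLN3, r was 0.92 within the Golden Retrievers (adjusted p = 0.406, exact permutation test) and 0.87 without Dal4 and ChadG4 (adjusted p = 0.465, exact permutation test), so 0 of 45 pairs passed in both, and 0.84 to 0.97 with 1 dog left out, where 0 to 1 pairs passed. Of the 340 pairs with other pathway genes, 0 passed by rho, 0 within the Golden Retrievers, 0 without Dal4 and ChadG4, and 0 to 5 with 1 dog left out. With 6 dogs the smallest exact p is too large for a single pair to pass after adjustment, so the counts within the Golden Retrievers bear on nothing. The causes of the other changes were not tested. The filter to variable probe sets gave no counts of pathway genes by direction. No paired analysis was possible because the labels give no shared replicate numbers. Depth is not defined for arrays, and the low signals of Dal4 for EPAS1 and EGLN3 only bound its differences.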
